A study of Arabidopsis thaliana with 48 samples.

Results

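The microRNAs (miRNAs) bound by ARGONAUTE1 (AGO1) in closed flower buds of the Arabidopsis thaliana mutant atprmt5-2 were compared with the miRNAs of the whole small RNA population of such buds. The comparison took the 21 nt tables of atprmt5-2, 4 of the 48 samples of the series and 4 of its 12 samples of 21 nt reads: total small RNA (replicates 1 and 2) and small RNA from AGO1 immunoprecipitates (AGO1-IP, replicates 1 and 3). Plants grew in soil under long days without treatment. The atprmt5-2 plants carry a mutant allele of the arginine methyltransferase gene PRMT5, and the labels give neither the nature of the mutation nor any other transgene or allele. For comparison, the same fractions of the Col0 wild type and of a further allele, atprmt5-6, were used, again with 2 libraries each. The series describes biological duplicates and calls the inputs a fraction of the extracts used for immunoprecipitation, but the labels do not state which total and AGO1-IP libraries came from the same plants, so p-values measure only the spread between these libraries.

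AGO1 is the main effector of plant miRNAs: it takes up the guide strand of a miRNA duplex, discards the passenger strand, and cuts or silences transcripts that pair with the guide. It favours small RNAs that begin with uridine, whereas relatives such as AGO2 favour 5′ adenosine, and AGO7 binds miR390. PRMT5 places symmetric methyl marks on arginines of its substrates, and the title of the series names AGO1 as a target of such enzymes.

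The tables cover 428 annotated miRNAs, of which 283 had a 21 nt read in at least 1 atprmt5-2 library and 145 had none. A miRNA was tested when its mean over the 12 libraries of 21 nt reads reached 5 reads per 1000000 reads of that length (RPM), which 128 miRNAs did. Because reads of identical mature sequences were spread over their annotated copies, these 128 held 97 distinct sequences. Of the untested miRNAs, 29 were listed in total small RNA alone and 52 in AGO1-IP alone, at no more than 15 and 23 reads, respectively. The tables hold miRNAs only, so neither the mutated gene nor markers of the tissue could be checked, and fewer cells that make a miRNA cannot be told apart from less of it per cell.

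The sequences on which the results turn are shown 5′ to 3′ as RNA, from the RefSeq annotation and genome of assembly TAIR10.1, with the seed (bases 2 to 8) in capitals. The first set holds guides that were higher in AGO1-IP, the second holds a guide and passenger from the same precursors, and the last 3 are a guide called lower, a passenger called higher and a miRNA with 5′ C called higher.
miR166a-3p (guide, chr2:19176241-19176261, plus strand): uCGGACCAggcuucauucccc
miR165b (guide, chr4:369856-369876, minus strand): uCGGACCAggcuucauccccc
miR159b-3p (guide, chr1:6220813-6220833, plus strand): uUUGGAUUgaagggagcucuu
miR396b-5p (guide, chr5:13611808-13611828, plus strand): uUCCACAGcuuucuugaacuu
miR171b-3p (guide, chr1:3961367-3961387, minus strand): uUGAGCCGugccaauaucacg
miR171b-5p (passenger, chr1:3961430-3961450, minus strand): aGAUAUUAgugcgguucaauc
miR168a-5p (guide, chr4:10578652-10578672, plus strand): uCGCUUGGugcaggucgggaa
miR168a-3p (passenger, chr4:10578737-10578757, plus strand): cCCGCCUUgcaucaacugaau
miR166a-5p (passenger, chr2:19176128-19176148, plus strand): gGACUGUUgucuggcucgagg
miR393b-5p (guide, chr3:20691657-20691678, plus strand): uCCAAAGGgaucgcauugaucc
miR393b-3p (passenger, chr3:20691778-20691798, plus strand): aUCAUGCGaucucuuuggauu
miR390a-5p (guide, chr2:16061971-16061991, plus strand): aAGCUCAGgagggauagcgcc
miR171a-5p (passenger, chr3:19073452-19073472, plus strand): uAUUGGCCugguucacucaga
miR5024-3p (no strand assigned, chr1:16766285-16766305, minus strand): cCGUAUCUuggccuugucauu

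Annotated miRNAs filled most of the AGO1-bound 21 nt reads and a minority of the total ones. They made up 32.9% and 23.0% of the 21 nt reads in the total libraries of atprmt5-2 and 72.2% and 70.5% in the AGO1-IP libraries. The groups did not overlap, at 28.0% ± 7.00 and 71.4% ± 1.17 (SD, n = 2), a difference of 43.4 percentage points. The exact two-sided permutation test gave p = 0.333, the smallest value that 2 against 2 libraries allow, and over all 12 libraries, permuted within genotype, p = 0.00926, the smallest that the 216 permutations allow. The 21 nt reads numbered 1262818 and 1102524 in the total libraries and 3750509 and 6775435 in AGO1-IP, so 1 read was worth 0.792, 0.907, 0.267 and 0.148 RPM.

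The RPM count all 21 nt reads of a library, whose miRNA share differed between the fractions, so values per 1000000 miRNA reads (RPMM) are given beside them. Loading below is the log2 value of AGO1-IP minus that of total. The median loading of the 128 miRNAs was 0.62 on the RPM scale and -0.63 in RPMM. On the RPM scale limma called 47 miRNAs higher in AGO1-IP (36.7%) and 24 lower (18.8%) at a Benjamini-Hochberg adjusted p under 0.05. Those were 33 and 21 distinct sequences. In RPMM 3 were higher (2.34%) and 46 lower (35.9%). Both AGO1-IP libraries lay above both total libraries in RPM for 66 miRNAs (51.6%) and below them for 30 (23.4%), and in RPMM for 13 (10.2%) and 82 (64.1%).

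The 24 lower calls were made under each scaling run, to which other scalings added further lower ones, whereas most of the higher calls depended on the scaling. All 24 miRNAs called lower on the RPM scale were also called lower in RPMM, after centring each library on its median miRNA level, with edgeR scaled to the authors' denominators or by TMM, and with DESeq2. Of the 47 called higher, 21 were positive under these 6 scalings, but 26 turned negative in RPMM. The 3 called higher under all 6 were miR159b-3p, miR396b-5p and miR171b-3p. The split of higher to lower calls was 12 to 35 with TMM (median loading -0.18), 10 to 33 with DESeq2 (-0.10), 46 to 24 in edgeR with the authors' denominators (0.67) and 55 to 24 after centring (0.74, since each library's median level, not the median loading, was set to 0). In size, 36 of the 47 exceeded 1 on the log2 scale and 6 exceeded 2, while all 24 lower ones were below -1 and 17 of them were lower by more than 10-fold.

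**Figure D1:**
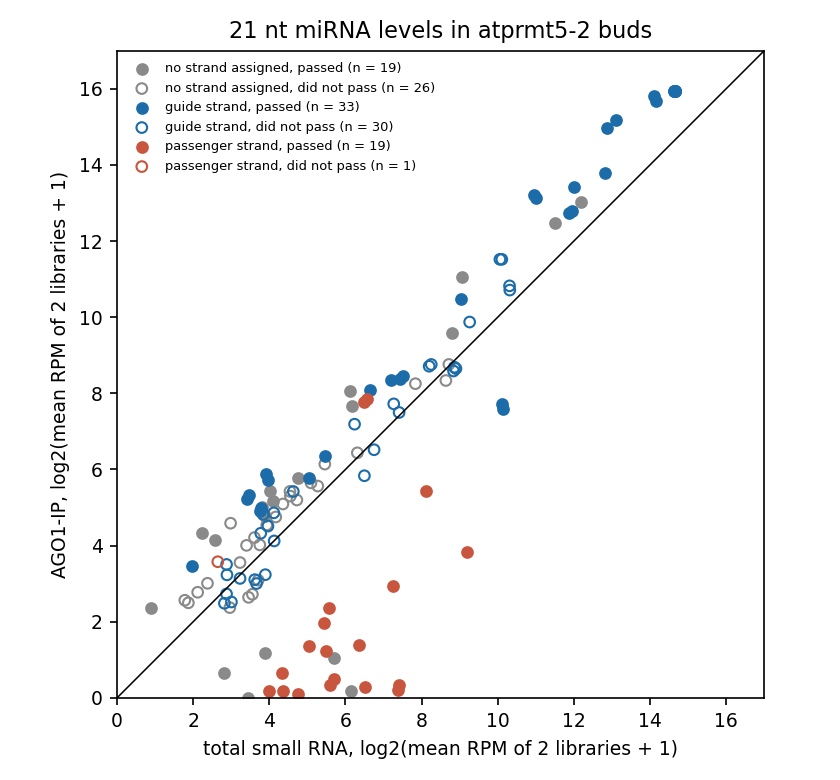
Mean 21 nt level of each of the 128 tested miRNAs in total small RNA (x axis) and AGO1-IP (y axis) of atprmt5-2, both as log2(mean RPM of 2 libraries + 1), coloured by strand; filled points passed the limma test and the line marks equal levels. Of the 63 guides 31 passed as higher and 2, the miR390 copies, as lower, and 17 of the 20 passenger strands passed as lower and lie well below the line.

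Single libraries mattered more for the higher calls. Of the 47 higher miRNAs, 31 were called in each of the 4 fits that left out an atprmt5-2 library, and 33 without total replicate 2, 38 without AGO1-IP replicate 3, 41 without AGO1-IP replicate 1 and 47 without total replicate 1. Of the 24 lower ones, 23 were called in all 4, the exception being miR398a-5p. The filter acted on a mean over both fractions, so a miRNA near 0 in AGO1-IP could enter only through total small RNA: 19 of the 24 lower miRNAs were under 5 RPM in AGO1-IP, and 4 of the 47 higher ones were under 5 RPM in total small RNA.

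Guides of leaf polarity and organ growth dominated both fractions. miR165 and miR166, which share the seed CGGACCA and direct the cutting of class III HD-ZIP transcripts, together made up 77.3% ± 0.708 of all 21 nt miRNA reads in the total libraries and 77.1% ± 3.21 in the AGO1-IP libraries (SD, n = 2). All 9 tested miRNAs with this seed, 2 distinct sequences, were higher in RPM, with loadings from 1.31 to 1.73. miR166a-3p stood at 30737 and 20860 RPM in the total libraries and 64609 and 61148 RPM in AGO1-IP, a loading of 1.31 (SE 0.21, limma adjusted p = 0.00033). Both AGO1-IP values were more than the higher total value. In RPMM the same sequence did not differ by the test, at 93376 and 90655 RPMM in total small RNA and 89476 and 86673 RPMM in AGO1-IP (loading -0.06, adjusted p = 0.287). miR165b was at 20193 and 16284 RPM in total small RNA and 56777 and 47952 RPM in AGO1-IP, with a loading of 1.52 (SE 0.22, adjusted p = 0.000201).

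miR396b-5p, a guide against growth-regulating factor transcripts, had one of the largest gains that held on both scales. It was at 7829 and 7265 RPM in the total libraries and 29060 and 35269 RPM in the AGO1-IP libraries, with no overlap. Its loading was 2.09 in RPM (SE 0.19, limma adjusted p = 7.56e-06) and 0.71 in RPMM (adjusted p = 0.0256). miR396a-5p, which has the same seed UCCACAG, rose by 1.40 in RPM from 638 and 414 to 1025 and 1800 RPM, but stood at 0.03 in RPMM (adjusted p = 0.956). The share of the family in miRNA reads was 2.98% ± 0.542 for the total and 4.71% ± 0.769 for the AGO1-IP libraries.

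The miR171 guides against GRAS-domain regulators split by sequence. miR171b-3p, which starts UUGAGCCG, went from 18.2 and 9.98 RPM to 60.0 and 55.1 RPM, a loading of 2.01 (SE 0.30, limma adjusted p = 0.000251) and 0.71 in RPMM (adjusted p = 0.0278). miR171a-3p, whose seed is GAUUGAG, was at 109 and 104 RPM in total small RNA and 78.4 and 103 RPM in AGO1-IP. Its loading did not pass in RPM (-0.25, adjusted p = 0.448) and was lower in RPMM (-1.62, adjusted p = 0.00383). The test of a difference between the miRNAs was not made.

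Over the whole list of meristem and organ patterning guides, 16 of 20 tested members were higher in RPM and 0 lower, beside 36.7% and 18.8% of all miRNAs tested. The median loading was 1.31, beside 0.62 for all miRNAs tested. In RPMM 2 were higher and 3 lower. The 20 members hold 10 distinct sequences, and 9 of the 16 are the miR165 and miR166 copies. miR319a, which targets TCP transcripts, was at 4749 and 3125 RPM in total small RNA and 6611 and 7556 RPM in AGO1-IP (loading 0.88, SE 0.24, limma adjusted p = 0.00983), a call kept in 2 of the 4 fits without a library and with a sign that turned with TMM (-0.03) and in RPMM (-0.50). miR164a, a guide against NAC boundary genes, had 5.54 and 7.26 RPM in total small RNA and 11.5 and 5.31 RPM in AGO1-IP, so its fractions overlapped (adjusted p = 0.635). The list's lowest member was its relative miR164b-5p at -0.49, also without a call in RPM.

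Of the 5 tested guides against MYB transcripts, 2 were higher and 0 lower in RPM, beside 36.7% higher among all miRNAs tested, and 1 was higher and 1 lower in RPMM. No difference between members was tested. miR159b-3p went from 10508 and 7120 RPM in the total libraries to 33489 and 40550 RPM in the AGO1-IP libraries. Its loading was 2.09 (SE 0.23, limma adjusted p = 2.15e-05) in RPM and 0.72 in RPMM (adjusted p = 0.000908). In total small RNA miR159a was of similar abundance, at 7610 and 6900 RPM, but it reached 12842 and 15620 RPM in AGO1-IP, a loading of 0.97 in RPM (adjusted p = 0.00182) and of -0.41 in RPMM. Both have the seed UUGGAUU, as does miR159c, which was not called in RPM (0.48, adjusted p = 0.195) and was lower in RPMM (-0.89, adjusted p = 0.0256). The miR858 guides, which target MYB regulators of flavonol synthesis, were not called: miR858a had 68.1 and 88.9 RPM in total small RNA and 81.6 and 89.7 RPM in AGO1-IP, and miR858b had 24.5 and 26.3 RPM against 30.7 and 40.7 RPM.

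**Figure D2:**
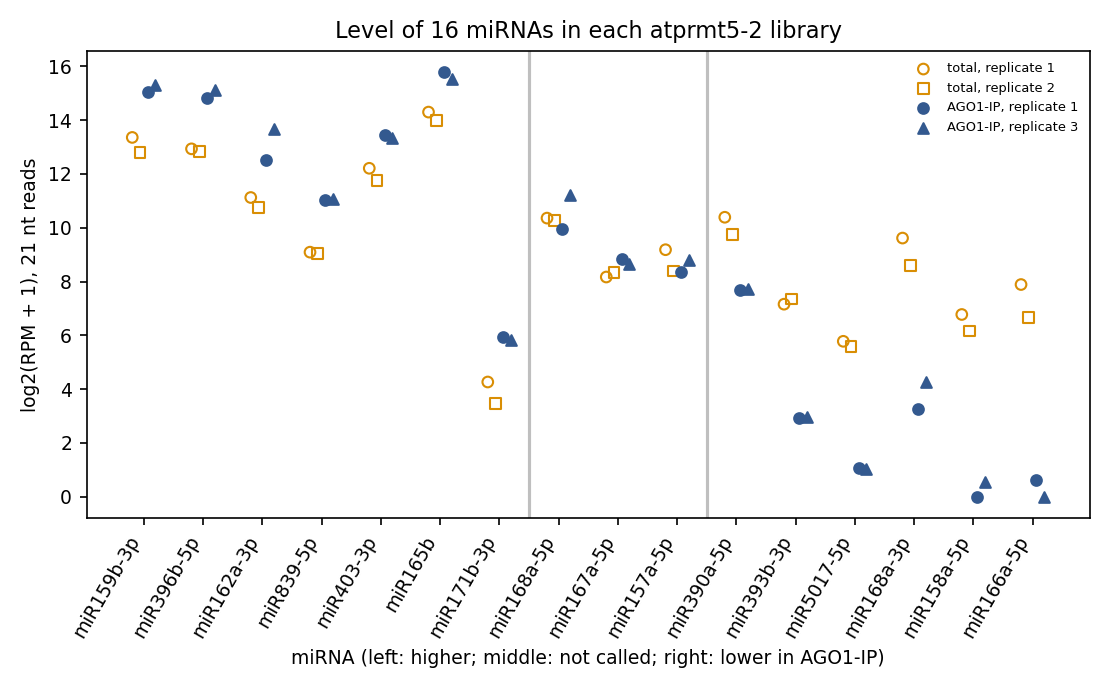
Level of 16 miRNAs in each of the 4 atprmt5-2 libraries, as log2(RPM + 1) of 21 nt reads; open orange symbols are the 2 total libraries and filled blue symbols the 2 AGO1-IP libraries. From the left, 7 miRNAs called higher, 3 not called and 6 called lower are shown; the 2 AGO1-IP values of miR168a-5p, 984 and 2371 RPM, lie on both sides of its total values.

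Among the guides that target the silencing machinery itself, miR162 and miR403 were higher in AGO1-IP and miR168 was not called. miR162a-3p, the guide against DCL1, was at 2232 and 1720 RPM in total small RNA and 5881 and 12987 RPM in AGO1-IP, with a loading of 2.16 (SE 0.32, limma adjusted p = 0.00026) in RPM and 0.78 in RPMM (adjusted p = 0.0788). miR403-3p, the guide against AGO2, went from 4743 and 3452 RPM to 11326 and 10428 RPM, a loading of 1.43 (adjusted p = 0.000207) that shrank to 0.05 in RPMM (adjusted p = 0.835). miR168a-5p, through which AGO1 limits its own transcript, was at 1312 and 1238 RPM in total small RNA and 984 and 2371 RPM in AGO1-IP. Those AGO1-IP libraries differed more than 2-fold from each other, and neither scale gave a call (0.26, SE 0.37, adjusted p = 0.552 in RPM; -1.11, adjusted p = 0.0591 in RPMM). The sign for miR168a-5p was also negative with TMM (-0.56) and DESeq2 (-0.45). In all, 3 of the 5 tested members of this list were higher in RPM, beside 36.7% of all miRNAs tested, and 0 were called on the miRNA scale. The 5 members hold 3 distinct sequences, and the higher ones were miR403-3p and the identical copies miR162a-3p and miR162b-3p.

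Triggers of secondary, phased siRNAs went both ways. Of 7 tested members of that list, 4 were higher and 2 lower in RPM (median loading 0.97, with 36.7% higher and 18.8% lower among all miRNAs tested), and 0 were higher and 3 lower in RPMM. miR390a-5p, which starts the siRNAs of TAS3 through AGO7 and begins with A, was at 1341 and 866 RPM in the total libraries and 207 and 211 RPM in the AGO1-IP libraries. Its loading was -2.36 (SE 0.29, limma adjusted p = 6.46e-05) in RPM and -3.74 in RPMM (adjusted p = 3.52e-07), and the miR390 share of miRNA reads was 0.794% ± 0.0348 for the total and 0.0562% ± 0.00123 for the AGO1-IP libraries. The other lower trigger was its identical copy miR390b-5p, at -2.51.

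The higher triggers were miR161.1, miR393a-5p, miR393b-5p and miR400. miR393a-5p, which targets transcripts of the auxin receptors TIR1 and AFB, went from 12.7 and 7.26 RPM to 28.5 and 50.0 RPM, a loading of 1.87 (SE 0.39, limma adjusted p = 0.00208). Its annotated form is 22 nt long, so these reads are a shorter form of it. miR161.1, a guide against pentatricopeptide repeat (PPR) transcripts, was at 3308 and 2510 RPM in total small RNA and 5229 and 6056 RPM in AGO1-IP (0.97, adjusted p = 0.0151), and the call held in 2 of the 4 fits without a library. miR161.2, which overlaps it on the same precursor, was at 486 and 354 RPM against 447 and 417 RPM (0.06, adjusted p = 0.872) and lower in RPMM (-1.31, adjusted p = 0.00607). miR400, also a PPR guide, rose from 7.13 and 2.72 to 13.1 and 20.2 RPM (1.65, adjusted p = 0.00504). The sign of miR161.1 turned in RPMM, to -0.41. Of the triggers too low to test, miR173-5p had 0 and 0.907 RPM in total small RNA and 1.33 and 2.07 RPM in AGO1-IP, miR472-3p, annotated at 22 nt, had 3.17 and 3.63 RPM against 4.80 and 7.82 RPM (its other arm miR472-5p had 8.71 and 3.63 RPM against 0.800 and 0.590 RPM), and miR828 had no read in the 4 libraries.

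None of the 7 tested guides of phase change and flowering, 3 distinct sequences, was called in RPM by limma (median loading -0.03). Of all miRNAs tested, 36.7% were higher and 18.8% lower in RPM. In RPMM 6 of the 7 were lower, beside 35.9% of all miRNAs tested. miR157a-5p, which targets SPL transcripts, had 580 and 334 RPM in total small RNA and 327 and 440 RPM in AGO1-IP, with overlapping fractions (-0.21, adjusted p = 0.612; -1.59 in RPMM, adjusted p = 0.00178). miR172a, which targets APETALA2-like transcripts and begins with A, had 16.6 and 16.3 RPM against 13.3 and 19.5 RPM (-0.03, adjusted p = 0.93; -1.37 in RPMM, adjusted p = 0.00215). miR156a-5p had no 21 nt read in the 4 libraries, but it is annotated at 20 nt, so these reads do not cover its annotated form.

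The auxin list had 4 of 8 tested members higher in RPM and 0 lower, beside 36.7% and 18.8% of all miRNAs tested. In RPMM 0 were higher and 1 lower. The 8 members hold 4 distinct sequences. Besides both miR393 guides the members higher in RPM were copies of miR160, which targets auxin response factor transcripts. The identical reads of miR160 were called for miR160b (1.25, limma adjusted p = 0.00983) and not for miR160a-5p (1.02, adjusted p = 0.069). miR160a-5p stood at 16.6 and 9.98 RPM in total small RNA and 25.6 and 28.8 RPM in AGO1-IP. miR167a-5p, also against auxin response factors, was at 287 and 322 RPM and then 458 and 406 RPM, without overlap and without a call (0.50, adjusted p = 0.136).

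Of 14 tested guides of nutrient homeostasis, 4 were higher and 0 lower in RPM, where 36.7% of all tested miRNAs were higher and 18.8% lower, and 0 were higher and 2 lower on the miRNA scale. miR827, which acts in phosphate signalling, rose from 120 and 77.1 to 271 and 268 RPM (1.48, SE 0.41, limma adjusted p = 0.00983), and the phosphate guide miR399a from 45.9 and 39.9 to 85.1 and 75.4 RPM (0.89, SE 0.27, adjusted p = 0.0147; -0.02 with TMM and -0.47 in RPMM). The calls held in 3 and 2 of the 4 fits without a library. The copper guide miR398b-3p differed so much between libraries of a fraction, with 1758 and 372 RPM in total small RNA and 4846 and 1027 RPM in AGO1-IP, that its loading of 1.46 (SE 1.22) was not called (adjusted p = 0.319). In both fractions replicate 1 held the higher value. The sulfate guide miR395a, which begins with C, was at 3.17 and 10.9 RPM in total small RNA and 2.67 and 6.79 RPM in AGO1-IP (adjusted p = 0.547).

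Outside the conserved families, 16 of 51 tested miRNAs were higher and 7 lower in RPM (median loading 0.65), near the 36.7% and 18.8% of all tested miRNAs. Among 59 conserved guides, which hold 32 distinct sequences, the counts were 29 and 2 (median 0.94). The classes are unlike, since the conserved list leaves out passenger arms and the other keeps some, such as miR158a-5p and miR824-3p, both called lower. The difference between the classes was not tested. miR839-5p rose from 545 and 527 to 2090 and 2167 RPM (1.99, SE 0.20, limma adjusted p = 1.37e-05), and miR851-5p from 72.1 and 64.4 to 217 and 312 RPM (1.92, SE 0.29, adjusted p = 0.000278). Both stayed positive in RPMM, at 0.61 (adjusted p = 0.0502) and 0.56 (adjusted p = 0.201). The largest loading of all was that of miR5024-3p, from 5.54 and 1.81 to 13.3 and 25.1 RPM (2.17, SE 0.44, adjusted p = 0.00163), which rests on 7 and 2 reads in the total libraries. miR825 went from 28.5 and 23.6 to 53.9 and 54.5 RPM (1.03, adjusted p = 0.00839; -0.31 in RPMM). miR843 was not called, with 70.5 and 15.4 RPM in total small RNA and 103 and 36.5 RPM in AGO1-IP (0.86, SE 0.71, adjusted p = 0.317), and replicate 1 again held the higher value in both fractions. The pollen-associated miR845a and miR845b, which target transposon transcripts, and miR163, whose annotated form is 24 nt long, were not called in RPM either (0.29, 0.58 and 0.10).

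Most tested passenger strands were lower in AGO1-IP. Of the 55 in the tables, 45 had a read in atprmt5-2 and 20 passed the filter on low values. That filter used the mean over both fractions, so a passenger near 0 in AGO1-IP could enter only through total small RNA. The passenger counts and median that follow hold for the 20 alone. Of those 20, 17 were lower and 2 higher in RPM, beside 18.8% and 36.7% of all miRNAs tested. In RPMM 17 were lower and 0 higher. The median loading was -4.11 in RPM. miR168a-3p, the passenger of the AGO1-targeting guide, fell from 784 and 386 RPM to 8.53 and 18.2 RPM, a loading of -5.35 (SE 0.41, limma adjusted p = 2.14e-06). miR166a-5p went from 236 and 99.8 RPM to 0.533 and 0 RPM. Its 408 total reads and 2 AGO1-IP reads, scaled to depth, had a ratio of 908, with an exact 95% interval of 250 to 7521 that covers counting error only. The ratio leaves out the identical copy miR166b-5p, which was assigned 301 and 102 total reads and 0 and 2 AGO1-IP reads.

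Other passengers at very few AGO1-IP reads were miR158a-5p, with 108 and 70.7 RPM in total small RNA and 0 and 0.443 RPM in AGO1-IP (ratio 319, 95% interval 108 to 1559), and miR167a-3p, with 50.7 and 43.5 RPM and then 0.533 and 0 RPM (ratio 249, 95% interval 67.4 to 2083). miR165a-5p had 39.6 and 12.7 RPM and then 0 and 0.148 RPM. miR829-5p, to which no strand was assigned, had 24 total reads and 0 AGO1-IP reads. With 3 reads over the AGO1-IP group as the floor, it was at least 35.6-fold lower there. The passenger miR398a-5p was at 30.1 and 131 RPM in total small RNA and 1.33 and 1.92 RPM in AGO1-IP, and its wide spread (SE 1.39, limma adjusted p = 0.0148) left the call in 1 of 4 fits without a library.

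Several of these lower strands are known outside AGO1. miR393b-3p, known from Arabidopsis as a small RNA of AGO2, was the more abundant arm of its precursor among 21 nt reads of total small RNA, at 142 and 162 RPM. The other arm is annotated at 22 nt. In AGO1-IP miR393b-3p fell to 6.67 and 6.79 RPM (-4.30, SE 0.32, limma adjusted p = 2.14e-06). In the list of guides known from other Argonautes all 12 tested members, only 4 distinct sequences, were called, 9 higher and 3 lower in RPM. Of all miRNAs tested, 36.7% were higher and 18.8% lower in RPM. The 9 were copies of miR165 and miR166, which AGO10 also binds, and the 3 were both miR390 copies and miR393b-3p. On the miRNA scale 0 were higher and the same 3 lower, beside 2.34% and 35.9% of all miRNAs tested. Without a partner strand in the test, miR861-3p went from 95.0 and 43.5 RPM to 0.267 and 0 RPM (ratio 748, 95% interval 132 to 29703) and miR5017-5p from 53.8 and 47.2 RPM to 1.07 and 1.03 RPM (-4.65, SE 0.30, adjusted p = 1e-06).

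A ratio of guide to passenger reads within a library needs no scaling, so strand choice was also followed per precursor. Of 21 precursors with at least 10 reads of each arm over the total libraries, 14 had both arms read in every library. Entry rested on total small RNA alone, so a precursor with an arm rare there could not enter, whatever its AGO1-IP reads. The counts and the median below hold for this selection only. The ratio was higher in both AGO1-IP libraries than in both total libraries for 10 of the 14 and lower in both for 2. The other 7 had an arm at 0 in an AGO1-IP library, and their bounds against 3 reads lay above both total values. The median change over the 14 precursors was 5.15 on the log2 scale. For MIR168a the log2 ratio of guide to passenger was 0.74 and 1.68 in the total libraries and 6.85 and 7.03 in the AGO1-IP libraries, so the guide exceeded the passenger by more than 100-fold in both AGO1-IP libraries. The guides of MIR168a, MIR393b and MIR171b are identical to those of other precursors, so their reads are the share that the authors' tables assign to this copy. For MIR396b the log2 ratio went from 7.36 and 7.61 to 13.56 and 13.34. The passengers of MIR162a, MIR162b and MIR403 are annotated at 22 nt, so their 21 nt reads are a shorter form.

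In 3 precursors the arm listed here as guide was the rarer one in both total libraries and the more abundant one in both AGO1-IP libraries. MIR393b went from -3.58 and -4.48 to 1.91 and 2.80, MIR171b from -1.76 and -1.63 to 4.11 and 3.54, and MIR824, whose guide targets AGL16, from -3.54 and -2.39 to 0.21 and 0.48. The MIR393b guide is annotated at 22 nt and its passenger at 21 nt, so this ratio counts a shorter form of the guide. Whether that guide is the rarer arm at its annotated length was not tested. MIR171a and MIR170 went the other way. For MIR171a the ratio was 0.11 and 0.47 in the total libraries and -1.01 and -1.41 in the AGO1-IP libraries, and for MIR170 it was -4.29 and -3.34 against -4.27 and -4.62, with overlap.

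The arm behind these exceptions is a sequence that both precursors share, listed as miR171a-5p and miR170-5p. It begins with U and was higher in AGO1-IP, from 101 and 75.3 to 158 and 274 RPM as miR171a-5p (1.24, SE 0.30, limma adjusted p = 0.00469) and by 1.31 as miR170-5p (adjusted p = 0.0069), the latter a call kept in 2 of 4 fits without a library. These were the 2 passengers called higher, and both turned slightly negative in RPMM (-0.12 and -0.05). The ratio for MIR408, a copper-related precursor whose arms both begin with A, was 4.85 and 5.58 in the total libraries and 3.72 and 4.74 in the AGO1-IP libraries. It rests on 11 and 2 passenger reads in the total libraries.

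**Figure D3:**
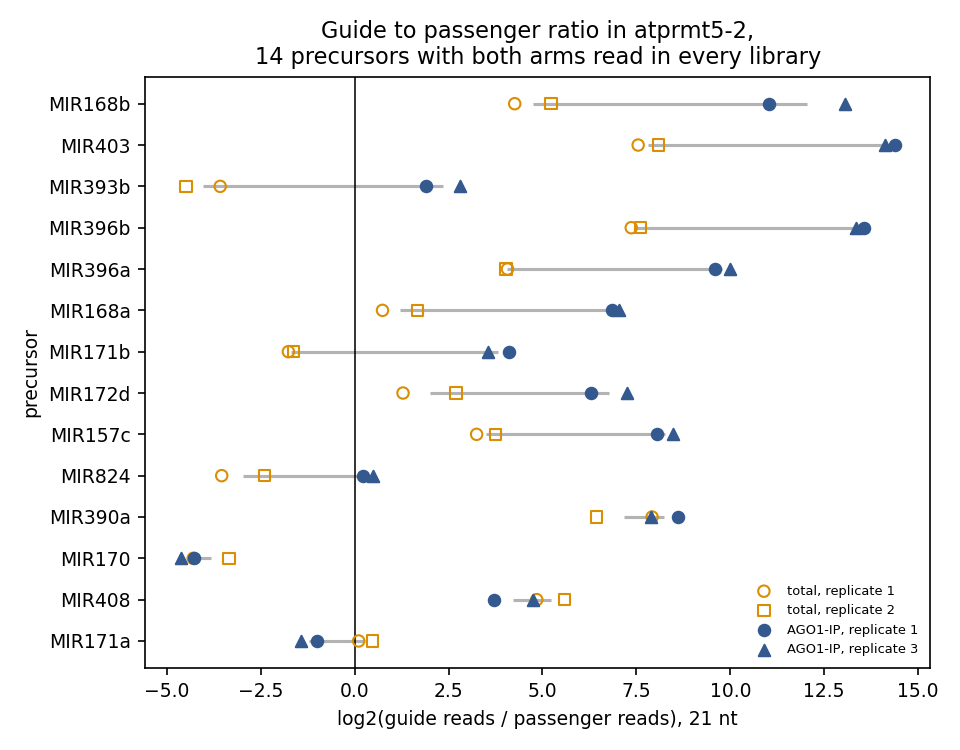
Log2 ratio of guide to passenger 21 nt reads in each atprmt5-2 library for the 14 precursors with both arms read in every library; open orange symbols are total libraries, filled blue symbols AGO1-IP libraries, and grey lines join the group means. The ratio is higher in both AGO1-IP libraries for 10 precursors and lower in both for MIR171a and MIR408, the latter with 11 and 2 passenger reads in the total libraries.

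In RPM, but not in RPMM, the first base separated the called miRNAs by direction almost completely. Of all miRNAs tested, 36.7% were higher and 18.8% lower in RPM. Of the 89 tested miRNAs with 5′ U, which hold 66 distinct sequences, 45 were higher and 4 lower in RPM, with a median loading of 0.94. Of 18 with 5′ A, 0 were higher and 8 lower (median -0.68). The 8 with 5′ G were all lower (median -4.87), and of 13 with 5′ C, 2 were higher and 4 lower (median -0.40). In RPMM 3 of the 5′ U miRNAs were higher and 17 lower, and for A, C and G 0 were higher and 14, 7 and 8 lower. Calls of every base were thus mostly lower there, beside 2.34% higher and 35.9% lower of all miRNAs tested. miRNAs with 5′ U made up 98.3% and 98.5% of miRNA reads in the total libraries and 99.9% in each AGO1-IP library, and those with 5′ A fell from 1.05% and 1.03% to 0.106% and 0.0984%.

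First base and strand class overlap, since 7 of the 8 miRNAs with 5′ G are passengers. Among guides alone, 30 of 49 with 5′ U were higher and 0 lower, whereas of the 7 with 5′ A 0 were higher and 2, the miR390 copies, lower. Among passengers with 5′ U, 2 of 5 were higher and 3 lower. The 2 higher miRNAs with 5′ C were miR5024-3p and miR158b, the latter annotated at 20 nt. The 4 lower miRNAs with 5′ U were the passengers miR162a-5p, miR162b-5p and miR403-5p, all annotated at 22 nt, and miR5653, annotated at 24 nt. For miRNAs annotated at other lengths, the 5′ end of the 21 nt reads was not given by the tables. Among the 79 miRNAs with 5′ U that are annotated at 21 nt, 43 were higher and 0 lower. No test was made on these classes.

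**Figure D4:**
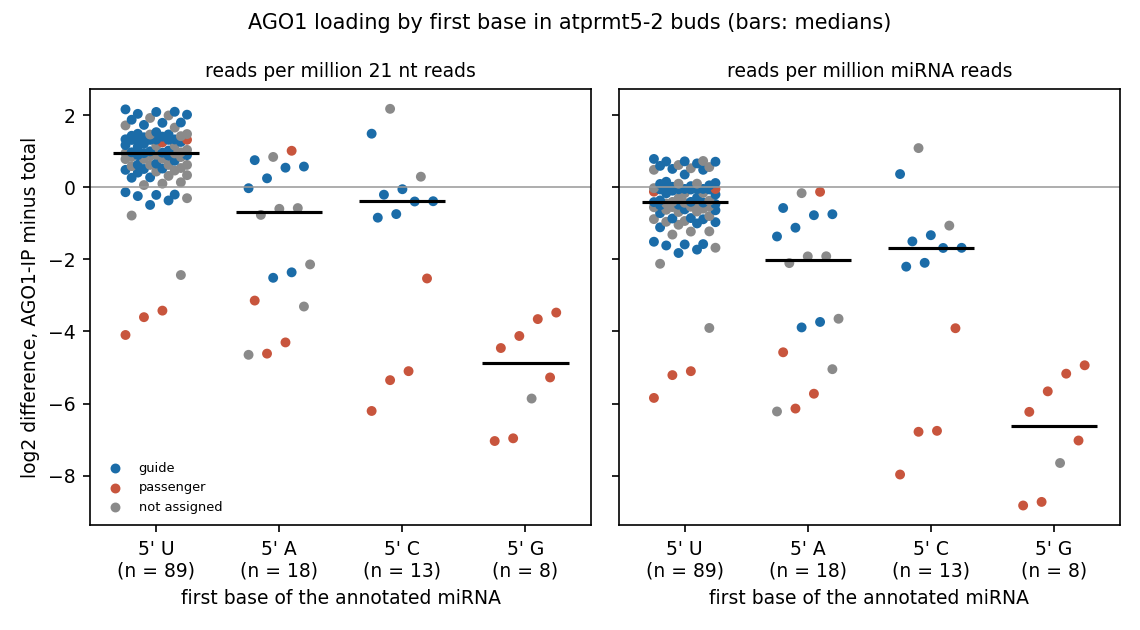
Loading (log2 difference, AGO1-IP minus total) of the 128 tested miRNAs by the first base of the annotated sequence, in RPM (left) and RPMM (right); points are miRNAs coloured by strand and bars are medians. In RPM the medians are 0.94 for U, -0.68 for A, -0.40 for C and -4.87 for G, and the order of U first and G last is the same on both scales.

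The loading pattern of atprmt5-2 was then set beside those of Col0 and atprmt5-6, which were measured in separate libraries. In Col0, limma called 26 miRNAs higher (20.3%) and 26 lower (20.3%), with a median loading of 0.23. Of the atprmt5-2 calls, 23 of the 47 higher and all 24 lower were called in the same direction in Col0, and 0 in the opposite direction. Loadings correlated across the 128 miRNAs at r = 0.96 (Spearman 0.84), a description over miRNAs that include identical copies. In atprmt5-6, 52 were higher (40.6%) and 25 lower (19.5%), and the correlation with atprmt5-2 was r = 0.98 (Spearman 0.90).

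The test of the difference itself called 0 miRNAs between atprmt5-2 and Col0 in RPM with limma, with edgeR and with DESeq2. The smallest limma adjusted p was 0.168, and at an unadjusted p under 0.05 there were 16 miRNAs with higher and 2 with lower loading in atprmt5-2. Over all 128 miRNAs the median difference was 0.42 in RPM. The standard error of a difference had a median of 0.48 on the log2 scale, and 27 miRNAs differed by more than 1 without passing. Against atprmt5-6 limma also called 0, in RPM and in RPMM, with 3 higher and 0 lower in RPM at an unadjusted p under 0.05 and 3 higher and 2 lower on the miRNA scale; edgeR and DESeq2 called 0 as well.

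In RPMM, limma called 6 miRNAs with higher loading (4.69%) and 2 with lower loading (1.56%) in atprmt5-2 than in Col0. Over all 128 miRNAs the median difference was 0.57 in RPMM, so the values below include a general shift. The higher were the triggers miR390a-5p, miR390b-5p and miR393a-5p, the TCP guide miR319b, miR825 and miR8183; the lower were miR165b and miR5637. miR390a-5p was at 1971 and 1601 RPM in Col0 total small RNA and 134 and 137 RPM in Col0 AGO1-IP, a loading of -3.70 in RPM beside -2.36 in atprmt5-2. On the miRNA scale the difference between these loadings was 1.49 (SE 0.30, adjusted p = 0.0321), and in RPM it was 1.34 (adjusted p = 0.174). miR825 had 22.8 and 17.5 RPM in Col0 total small RNA and 17.9 and 14.4 RPM in Col0 AGO1-IP, so its loading was -0.30 in Col0 and 1.03 in atprmt5-2. miR393a-5p had 33.3 and 17.5 RPM in Col0 total small RNA and 19.7 and 24.0 RPM in Col0 AGO1-IP, where the fractions overlapped, unlike in atprmt5-2.

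These 8 calls depend on the libraries used: leaving out each library in turn gave between 0 and 21 higher ones, with 0 higher and 0 lower without Col0 total replicate 1 or without atprmt5-2 AGO1-IP replicate 3. Fits without a library kept the call of miR5637 in 6 of 8, of miR165b and miR319b in 3 of 8, and of the other 5 in 2 of 8.

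**Figure D5:**
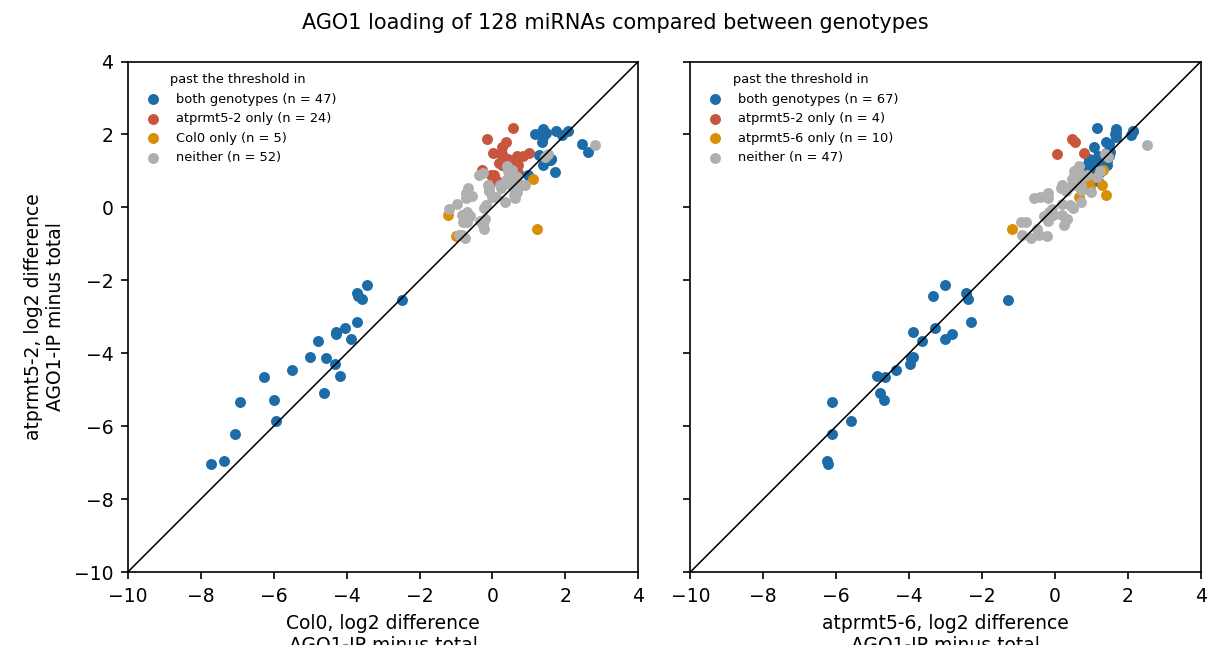
Loading of 128 miRNAs in atprmt5-2 (y axis) against Col0 (left) and atprmt5-6 (right), as log2 differences of AGO1-IP from total in RPM; colours show where a miRNA passed the limma threshold and the line marks equal loading. The 24 miRNAs called lower in atprmt5-2 were also called lower in Col0, and no single difference between genotypes passed the test in RPM.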

How the data were processed

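The data are 21 nt small RNA reads from closed buds. Per the submitters' processing notes, Trimmomatic 0.36, Bowtie2, SAMtools 1.9 and TAIR10 were used; what each did is not given in the sources used here. The authors deposited RPM values per annotated miRNA, and a missing value was taken as 0 reads. All listed values (100%) were whole multiples of 1 read within 0.01 reads, so reads and denominators (571191 to 8166912 per library) were recovered from the deposited RPM. RPMM divides by a library's miRNA reads instead. All 428 names were matched to TAIR10.1.

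limma 3.58.1 (R 4.3.3) was fitted to log2(RPM + 1), which understates changes of low miRNAs, over 12 libraries in 6 groups (6 residual degrees of freedom, intensity trend, no block) for 128 miRNAs of mean RPM of at least 5, with Benjamini-Hochberg adjustment over all 128. Pooling assumes equal spread in all groups. edgeR 4.0.16 and DESeq2 1.42.0 on the recovered counts, as alternatives, called 46 higher and 24 lower (edgeR with the authors' denominators) and 10 higher and 33 lower (DESeq2). Scripts were tested on simulated data. Further alternatives were other pseudocounts, filters and scalings, summed identical sequences, a replicate block and leaving out each library. Between replicates of a group the chi-square of read numbers per degree of freedom was 23.4 to 499, above sampling noise, so each counted as a sample. Intervals at 95% and floors of 3 reads cover counting error only.

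Members and lists were chosen with earlier results of these data known; the guide arm of miR472 was set to 3p, and miR825 left without a strand and off the trigger list, after values were seen. Named were the 10 largest called loadings per direction, the 5 most abundant miRNAs per fraction, guides set by role, and the counts of each list with its extremes. Also named were the 5 differences from Col0 per direction with the smallest unadjusted p by limma, and every call between genotypes. miR829-5p, miR851-5p and others in small classes were named after their values were seen.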

Additional observations from a re-analysis of the deposited data

Results flagged for a closer look

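A test of the difference in loading between atprmt5-2 and Col0 called 8 miRNAs in RPMM, reads per 1000000 miRNA reads (limma, adjusted p under 0.05), and in RPM the same differences were not called (adjusted p 0.168 to 0.192). The median difference of all 128 miRNAs was 0.57 in RPMM. For the triggers of phased siRNAs the loading in atprmt5-2 exceeded that in Col0 by 1.49 for miR390a-5p (adjusted p = 0.0321), 1.21 for its copy miR390b-5p (adjusted p = 0.0366), and 2.23 for miR393a-5p (adjusted p = 0.0366), whose identical copy miR393b-5p was not called (1.61, adjusted p = 0.0956). miR825 differed by 1.48 (adjusted p = 0.0337). miR319b, a guide against TCP transcripts, differed by 1.07 (adjusted p = 0.0337), from a loading of -1.55 in RPMM in Col0 to -0.49 in atprmt5-2, while its identical copy miR319a was not called (1.00, adjusted p = 0.0521). miR165b differed by -0.93 (adjusted p = 0.0210), from 1.08 to 0.15, while its identical copy miR165a-3p was not called. miR8183 differed by 1.92 (adjusted p = 0.0366) and was at 0.792 and 0.907 RPM in atprmt5-2 total small RNA, 1 read in each library. miR5637 differed by -3.38 (adjusted p = 0.0151). It had 0 reads in both Col0 total libraries, so the difference is not a measured fold. With libraries paired by order, miR390b-5p, miR393a-5p and miR8183 lost their calls (limma adjusted p 0.0508 to 0.0511).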

How the results depend on the processing

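The 24 lower calls were made under every scaling run, while the number of higher calls rested on it: 47 in RPM became 3 higher and 46 lower in RPMM, 12 higher and 35 lower with TMM in edgeR and 10 higher and 33 lower with DESeq2. Without a filter on low values 43 were lower. Without each atprmt5-2 library in turn the counts ran from 35 to 54 higher and 23 to 26 lower in RPM, and from 1 to 5 higher and 36 to 49 lower in RPMM. Groups of 2 libraries, and 21 nt reads alone, limit these results.

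The difference in loading from Col0 had 0 calls in RPM by limma, 6 higher and 2 lower in RPMM, 1 lower with a pseudocount of 0.1, and 0 to 1 higher without a library. On the miRNA scale edgeR called 1 lower (and 4 higher), and leaving out each library gave 0 to 21 higher and 0 to 8 lower. The difference from atprmt5-6 on that scale ran from 0 to 2 higher. The miRNA share differed by 38.5 to 48.4 points without each library.

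With total and AGO1-IP libraries of 1 genotype paired by order, the replicate block gave 51 higher and 24 lower calls in RPM, 0 differences from Col0 or atprmt5-6, and 3 higher and 48 lower in RPMM; the 6 higher differences from Col0 on that scale became 3 (miR390b-5p, miR393a-5p and miR8183 lost their calls, limma adjusted p 0.0508 to 0.0511). The labels share only the number 1 between fractions. Deviations of libraries paired by order correlated over 128 miRNAs at 0.48 in atprmt5-2, 0.14 in Col0 and 0.77 in atprmt5-6, and at 0.56 to 0.64 between libraries of atprmt5-2 and atprmt5-6.

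Several signs turned. In RPMM the loading was -0.065 for miR166c, -0.050 for miR166e-3p, -0.063 for miR166a-3p, -0.41 for miR159a and miR161.1, -0.31 for miR825, -1.11 for miR168a-5p, -1.31 for miR161.2, -0.48 for miR843, -1.23 for miR858a and miR163, -0.89 for miR858b, -1.07 for miR845a, -0.63 for miR845b, -0.47 for miR399a, -0.50 for miR319a, -0.29 for miR160a-5p, -0.87 for miR167a-5p and -1.01 for miR164a. With TMM it was -0.56 for miR168a-5p, -0.86 for miR161.2, -0.027 for miR843, -0.033 for miR319a, -0.87 for miR858a, -0.45 for miR858b, -0.53 for miR163, -0.65 for miR845a, -0.076 for miR845b, -0.018 for miR399a, -0.48 for miR167a-5p and -0.54 for miR164a. With DESeq2 it was -0.45 for miR168a-5p, -0.74 for miR161.2, -0.71 for miR858a, -0.32 for miR858b, -0.51 for miR163 and miR845a, -0.047 for miR845b, -0.31 for miR167a-5p and -0.41 for miR164a. miR172a was at 0.090 after centring, 0.0012 in edgeR with the authors' denominators and 0.26 with identical sequences summed, where miR164a was at -0.17. Those scalings move the median of all miRNAs to between -0.63 and 0.74; the cause was not tested.

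Without a library, sign changes occurred in miR168a-5p (-0.37 to 0.89), miR161.2 (-0.17 to 0.29), miR843 (-0.20 to 1.92), miR858a (-0.054 to 0.33), miR163 (-0.72 to 0.91), miR172a (-0.29 to 0.23), miR395a (-1.15 to 0.36), miR164a (-0.22 to 0.76) and miR157a-5p (-0.61 to 0.18), none of them called in RPM, and in the difference of miR166a-3p from Col0 (-0.56 to 0.00088).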
